A study of Mus musculus with 8 samples.

Results

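Small RNA libraries of mouse 3T3 cells carrying either of 2 long RNA hairpins were compared here by their endogenous miRNAs. The hairpins were expressed from U6 plasmids, in which an RNA polymerase III promoter drives an inverted repeat, so that U6-Lin28aIR cells produced double-stranded RNA of Lin28a sequence and U6-MosIR cells produced double-stranded RNA of Mos sequence. The libraries were chosen by the plasmid named on each of them, which gave 4 of the 8 libraries of the series, 2 per plasmid. The other 4 libraries came from cells with CAG-EGFP-Lin28IR or CAG-EGFP-MosIR plasmids and entered the shared estimate of the spread and 1 comparison. All cells were NIH3T3, an immortalised mouse embryonic fibroblast line with its own Dicer, and the labels name no other plasmid in them. The RNA was taken 48 h after transfection. Duplicates were separately transfected wells, so the p-values measure the spread between wells of 1 cell line. No library of cells without a hairpin was analysed here, so a response that both hairpins share cannot be seen in this comparison.

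Dicer cuts long double-stranded RNA into siRNAs and cuts precursor hairpins into miRNAs, and both products are loaded on Argonaute proteins. LIN28A and LIN28B are RNA-binding proteins that hold back the maturation of let-7 precursors, in part through a GGAG motif in the terminal loop. LIN28A is known from pluripotent and embryonic cells, and differentiated cells usually carry little of it and much mature let-7. MOS is a kinase of oocyte maturation, and its sequence has no known part in miRNA processing. The let-7 guide strands were therefore read first, followed by the miRNAs with the largest differences, the most abundant miRNAs and lists of miRNAs with known roles.

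The mature sequences of the miRNAs on which the comparison turned are given first, from RefSeq (GRCm38.p6), with bases 2 to 8 (the seed, which pairs with targets) in capitals. let-7j was tested but was not on the list of let-7 guides, and has the seed GAGGUAU. The 9 let-7 guide strands on the list that could be tested shared the seed GAGGUAG.
let-7a-5p: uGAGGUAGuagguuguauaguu
let-7b-5p: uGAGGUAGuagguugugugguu
let-7c-5p: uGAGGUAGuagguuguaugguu
let-7d-5p: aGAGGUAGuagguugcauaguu
let-7e-5p: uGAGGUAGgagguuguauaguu
let-7f-5p: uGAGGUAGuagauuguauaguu
let-7g-5p: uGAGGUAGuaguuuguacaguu
let-7i-5p: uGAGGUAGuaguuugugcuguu
miR-98-5p: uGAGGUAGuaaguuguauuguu
The most abundant miRNA, the largest rise and fall in the fitted value among miRNAs with a mean of at least 10 RPM (reads per 1e6 perfectly mapped reads) in the 4 libraries, and the miRNA with the lowest p had other seeds.
miR-21a-5p: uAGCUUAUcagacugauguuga
miR-532-3p: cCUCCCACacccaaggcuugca
miR-3068-5p: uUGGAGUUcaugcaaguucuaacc
miR-1191a: cAGUCUUAcuauguagcccua

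On GRCm38, let-7a-5p and let-7d-5p were counted in an exon of the lincRNA 6720427I07Rik, at chr13:48538239-48538260 and chr13:48536078-48536099 on the minus strand. let-7b-5p and let-7c-5p were counted in an exon of Lncppara on chromosome 15, at chr15:85707325-85707346 and chr15:85706616-85706637. let-7f-5p (chrX:151912353-151912374) and miR-98-5p (chrX:151913229-151913250) lay in introns of Huwe1, on its strand. let-7g-5p lay in an intron of Wdr82 (chr9:106178846-106178867), let-7e-5p in an intron of Spaca6 (chr17:17830366-17830387) and let-7i-5p in an exon of the transcribed pseudogene D630033A02Rik (chr10:122985698-122985719). For a mature miRNA with several loci only the locus with the most counts was kept, so its place names 1 of its genes only. miR-21a-5p lay in an exon of Vmp1 (chr11:86584120-86584141). miR-532-3p lay in an intron of Clcn5 (chrX:7248419-7248440), and miR-3068-5p lay in an exon of the lincRNA Gm29362 within an intron of Alkbh1 (chr12:87437724-87437747). miR-1191a lay in an exon of BC024978 (chr7:27205615-27205635).

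The loop between the guide and passenger strand was read for the 11 let-7 and miR-98 hairpins with both strands in the sequence table, and GGAG was searched as those letters on the RNA strand. It was present in 8 of these 11 loops, against 52 of all 644 mouse hairpins with both strands listed (8.07%). The shorter loops are shown with GGAG in capitals, and the Mirlet7c-2 loop is one of those without it.
Mirlet7a-1: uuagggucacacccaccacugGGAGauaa
Mirlet7c-1: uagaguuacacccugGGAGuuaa
Mirlet7e: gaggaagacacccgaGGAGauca
Mirlet7f-2: uuagggucauaccccaucuuGGAGauaa
Mirlet7c-2: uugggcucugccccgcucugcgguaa
Such a match describes the letters only and is no evidence of binding.

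The libraries held 12898619 and 15098888 perfectly mapped reads with U6-Lin28aIR, and 16228597 and 14090884 with U6-MosIR. Counts on mature miRNAs came to 2422329 and 3341065 with U6-Lin28aIR, and 3029368 and 2637028 with U6-MosIR. RPM values are counts without mismatches per 1e6 perfectly mapped reads, and 3 counts, the limit that a count of 0 allows, correspond to 0.185 to 0.233 RPM, for counting error only. Of 1966 mature names, 922 had a count in at least 1 of the 4 libraries and 360 passed the filter on low counts, and these 360 held 99.97% of the miRNA counts. The 10 most abundant miRNAs held 60.96% of them. The cells carried fibroblast miRNAs, with all 13 on the fibroblast list tested and their summed level between 80920 and 96540 RPM. Of 10 miRNAs of embryonic stem cells, 9 had no count in any of the 4 libraries, and the other, miR-295-3p, was at 0 and 0 RPM in the U6-Lin28aIR libraries and at 0 and 0.071 RPM in the U6-MosIR libraries.

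One library stood apart. miRNA counts were 18.8% and 22.1% of the perfectly mapped reads in the U6-Lin28aIR libraries, against 18.7% and 18.7% in the U6-MosIR libraries. The second U6-Lin28aIR library was thus the high one, and the first was close to both U6-MosIR libraries. The means were 20.5% ± 2.37 with U6-Lin28aIR and 18.7% ± 0.034 with U6-MosIR (SD, n = 2 each), a difference of 1.76 percentage points that became 0.0891 without that library. Reads of 18–30 nt were 26.5% and 29.7% of the perfectly mapped reads in U6-Lin28aIR libraries, and 25.1% and 26.0% in U6-MosIR libraries. Those of 21–23 nt, the usual length of Dicer products, were 15.59% and 18.01% in U6-Lin28aIR libraries, and 15.3% and 15.5% in U6-MosIR libraries. In all 3 measures both U6-Lin28aIR libraries lay above both U6-MosIR libraries, by means of 1.76, 2.51 and 1.41 percentage points. A two-sided exact permutation test gave p = 0.333 for each, which is the smallest that 2 libraries against 2 allow, so no share could pass a threshold of 0.05 here. Without the second U6-Lin28aIR library the 18–30-nt and 21–23-nt differences were 0.898 and 0.205 percentage points. The 21–23-nt reads made up 58.9% and 60.6% of the 18–30-nt reads in U6-Lin28aIR libraries, and 60.9% and 59.4% in U6-MosIR libraries, and these overlapped (p = 0.667, exact permutation test).

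**Figure D1:**
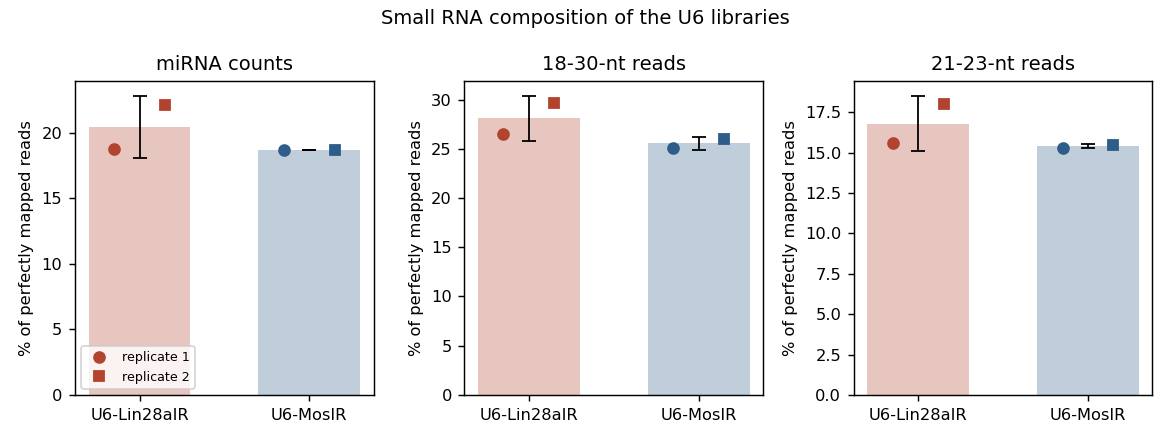
Share of the perfectly mapped reads (%) taken by miRNA counts, 18–30-nt reads and 21–23-nt reads in the 2 U6-Lin28aIR and 2 U6-MosIR libraries; bars are means, error bars SD (n = 2), circles replicate 1 and squares replicate 2. The second U6-Lin28aIR library is the highest in each panel, at 22.1%, 29.7% and 18.01%, and the first is close to the U6-MosIR libraries.

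No miRNA passed the test for a difference between U6-Lin28aIR and U6-MosIR cells. Of the 360 miRNAs tested with edgeR's quasi-likelihood test, 0 passed an adjusted p of 0.05 (0% of those tested), and the lowest adjusted p was 0.996. At an unadjusted p under 0.05 there was 1 miRNA (0.278% of those tested), miR-1191a, and DESeq2 gave 0 at either threshold. The fitted differences were small at every level where the libraries were deep enough to measure them. For the 194 miRNAs with a mean of at least 10 RPM, the log2 fold change ran between -0.35 and 0.28, with a median size of 0.06 and a median SE of 0.21. The 95% interval of the difference lay within 2-fold in either direction for all 194 of these, and within 1.5-fold for 152 of them. Below 10 RPM the values spread more widely, between -1.44 and 1.35 on the log2 scale for 166 miRNAs with a median SE of 0.36, and all 21 miRNAs past 1.5-fold belonged to them. Of all 360, 274 had intervals within 2-fold, and below 10 RPM a difference inside these wider intervals was not detectable at this depth.

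**Figure D2:**
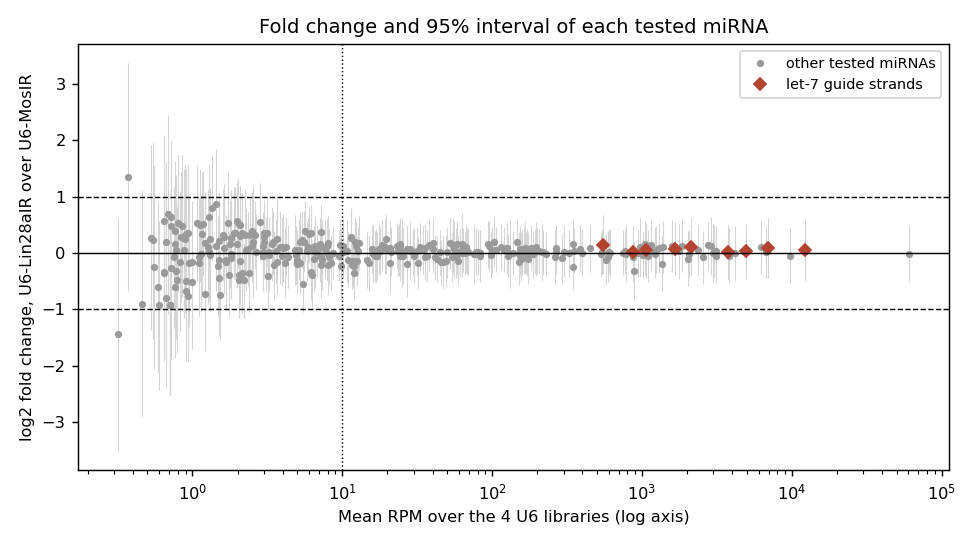
Log2 fold change of U6-Lin28aIR over U6-MosIR against the mean RPM of the 4 U6 libraries (log axis) for the 360 tested miRNAs. Vertical lines are 95% intervals, diamonds the listed let-7 guide strands, dashed lines 2-fold and the dotted line 10 RPM. All 194 miRNAs to the right of the dotted line have intervals between the dashed lines, and the points fan out to the left of it.

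The let-7 guide strands, the products that LIN28 proteins hold back, were among the most abundant miRNAs of both cell populations. Their sum was 33170 and 39100 RPM in U6-Lin28aIR libraries, and 31530 and 32570 RPM in U6-MosIR libraries. Both U6-Lin28aIR sums lay above both U6-MosIR sums, with means of 36130 ± 4197 and 32050 ± 740.8 RPM (SD, n = 2 each). Set against the miRNA counts of the same library, the let-7 guides took 17.66% and 17.67% with U6-Lin28aIR, and 16.9% and 17.4% with U6-MosIR. The difference was 0.519 percentage points (exact permutation p = 0.333, the smallest possible), and it was 0.261 without the first U6-MosIR library.

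Of the 10 let-7 guides on the list, 9 passed the filter and 0 passed the test. let-7f-5p, the most abundant, was at 11380 and 14560 RPM with U6-Lin28aIR, and at 11440 and 11560 RPM with U6-MosIR. The U6-MosIR values fell between those of the U6-Lin28aIR duplicates, and the log2 fold change was 0.05 ± 0.27 (SE). let-7a-5p was at 7259 and 7465 RPM with U6-Lin28aIR, and at 6304 and 6532 RPM with U6-MosIR. Both U6-Lin28aIR libraries were higher in RPM, as in 95 of the 360 tested miRNAs (26.4%) and in 3 of the 9 let-7 guides, and after TMM scaling the groups overlapped, with a log2 fold change of 0.09 ± 0.26 (SE). let-7g-5p was at 4397 and 6016 RPM with U6-Lin28aIR, and at 4486 and 4898 RPM with U6-MosIR. let-7i-5p was at 3214 and 4603 RPM with U6-Lin28aIR, and at 3483 and 3633 RPM with U6-MosIR. For both of these the lowest and the highest value came from the U6-Lin28aIR duplicates. let-7c-5p was at 2405 and 2181 RPM with U6-Lin28aIR, and at 1990 and 1974 RPM with U6-MosIR, a pattern like that of let-7a-5p. let-7d-5p was at 1853 and 1649 RPM with U6-Lin28aIR, and at 1470 and 1651 RPM with U6-MosIR. let-7e-5p was at 1215 and 1033 RPM with U6-Lin28aIR, and at 999 and 1012 RPM with U6-MosIR. In let-7d-5p the lower U6-Lin28aIR value met the higher U6-MosIR value, and in let-7e-5p the U6-Lin28aIR values were the higher ones by a small margin. let-7b-5p was at 722.9 and 465.7 RPM with U6-Lin28aIR, and at 511.2 and 496.1 RPM with U6-MosIR. miR-98-5p was at 718.8 and 1128 RPM with U6-Lin28aIR, and at 842.5 and 817.4 RPM with U6-MosIR. In both, the U6-MosIR values again lay between the U6-Lin28aIR duplicates. The remaining member, let-7k, was at 0.543 and 0.596 RPM with U6-Lin28aIR, and at 0.431 and 0.284 RPM with U6-MosIR, and did not pass the filter.

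**Figure D3:**
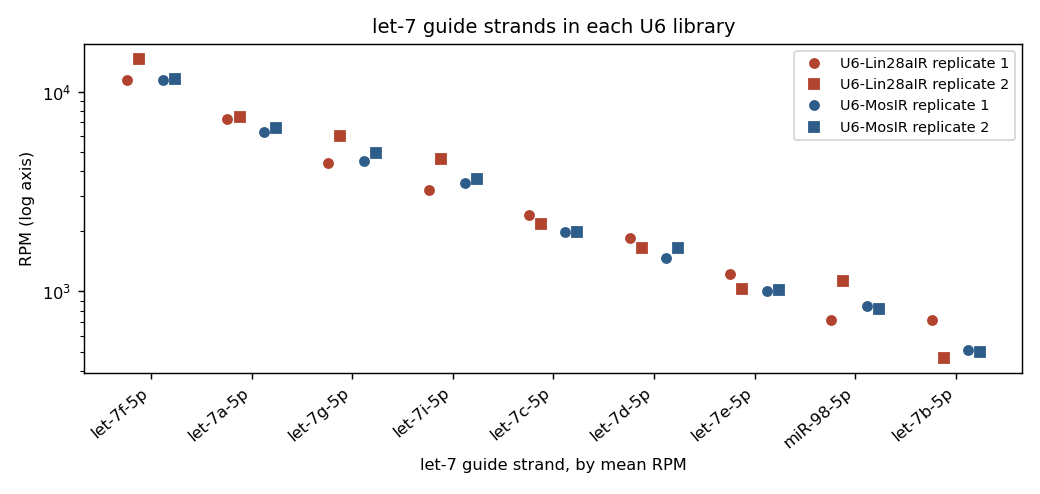
RPM (log axis) of the 9 tested let-7 guide strands on the list in each U6-Lin28aIR and U6-MosIR library, ordered by mean RPM. Circles are replicate 1 and squares replicate 2. The U6-Lin28aIR duplicates of let-7b-5p (722.9 and 465.7 RPM) and miR-98-5p (718.8 and 1128 RPM) lie apart, on either side of the U6-MosIR pair.

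All 9 fitted differences of the listed let-7 guides were above 0, with a median log2 fold change of 0.06 beside 0.02 for all 360 miRNAs. Only 6 of 9 were above 0 with DESeq2's size factors, and 6 of 9 when only miRNAs of at least 10 RPM were fitted. The count was 8 of 9 with the 18–30-nt reads as library sizes, and 8 of 9 with the loci of a name summed. It was 5 to 7 of 10 when 1 of the 4 U6 libraries was left out, which let let-7k pass the filter. The largest was let-7b-5p at 0.15 ± 0.25 (SE) and the smallest let-7i-5p at 0.01 ± 0.23 (SE). The 95% intervals of these 9 reached no lower than 0.705-fold and no higher than 1.595-fold. Unadjusted p-values lay between 0.565 and 0.969, and the adjusted p was 0.996 for each. The rare let-7j, tested but not on the list, went the other way, at -0.60 ± 0.60 (SE). It had 6 and 12 counts with U6-Lin28aIR, and 12 and 15 counts with U6-MosIR. Its U6-Lin28aIR libraries lay below both U6-MosIR libraries after TMM scaling and overlapped with them in RPM.

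The let-7 guides moved in opposite directions between the U6-Lin28aIR duplicates. let-7b-5p, let-7c-5p, let-7e-5p, let-7d-5p and let-7a-5p were lower in the second U6-Lin28aIR library than in the first after TMM scaling, and let-7f-5p, let-7g-5p, let-7i-5p and miR-98-5p were higher in it. The log2 ratio of the second over the first library ran between -0.83 (let-7b-5p) and 0.46 (miR-98-5p) within U6-Lin28aIR, and between -0.17 and 0.04 within U6-MosIR. For each of the 9 guides the U6-Lin28aIR duplicates thus differed by more than the fitted difference between the hairpins.

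The passenger strands of the same hairpins were far less abundant. let-7a-1-3p and let-7c-2-3p have 1 sequence, so the same reads stand under both names, and after the values were seen let-7c-2-3p was left out of the sum and the counts. The sum was 257.1 and 275.0 RPM with U6-Lin28aIR, and 220.3 and 260.2 RPM with U6-MosIR. Of 11 distinct sequences listed, 10 passed the filter, 0 passed the test, 4 had fitted values above 0 and 6 below, and the median log2 fold change was -0.03. let-7d-3p, the most abundant of them, was at 103.7 and 99.3 RPM with U6-Lin28aIR, and at 74.7 and 95.2 RPM with U6-MosIR. let-7a-1-3p was at 86.5 and 85.2 RPM with U6-Lin28aIR, and at 74.4 and 85.8 RPM with U6-MosIR. In both the first U6-MosIR library was the low one. let-7i-3p was at 22.4 and 39.2 RPM with U6-Lin28aIR, and at 30.1 and 28.2 RPM with U6-MosIR. let-7a-2-3p, among the 8 lowest p-values, had 12 and 43 counts with U6-Lin28aIR, and 14 and 15 counts with U6-MosIR. Its difference rested on the second U6-Lin28aIR library, and the log2 fold change of 0.86 ± 0.47 (SE) was -0.10 without that library. Of hairpins outside the let-7 family with GGAG in the loop, 6 mature strands had at least 10 RPM, and their log2 fold changes ran between -0.08 (miR-107-3p) and 0.06 (miR-30e-3p), with 3 above 0.

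The miRNAs with the lowest p-values were rare. miR-1191a had 49 and 83 counts with U6-Lin28aIR, and 107 and 83 counts with U6-MosIR, or 3.799 and 5.497 RPM against 6.59 and 5.89 RPM. Both U6-Lin28aIR values were the lower ones, and the log2 fold change was -0.55 ± 0.24 (SE; unadjusted p = 0.0354, edgeR). miR-677-5p had 15 and 19 counts with U6-Lin28aIR, and 35 and 22 counts with U6-MosIR (-0.75 ± 0.38 on the log2 scale, SE). In these 2 miRNAs the U6-Lin28aIR libraries lay below both U6-MosIR libraries. miR-365-1-5p had 25 and 24 counts with U6-Lin28aIR, and 13 and 15 counts with U6-MosIR (0.80 ± 0.45, SE). miR-3084-3p had 33 and 35 counts with U6-Lin28aIR, and 19 and 27 counts with U6-MosIR (0.56 ± 0.35, SE). miR-3102-3p had 45 and 52 counts with U6-Lin28aIR, and 27 and 39 counts with U6-MosIR (0.55 ± 0.33, SE). miR-503-3p had 103 and 132 counts with U6-Lin28aIR, and 84 and 97 counts with U6-MosIR (0.37 ± 0.23, SE). In these 4 the U6-Lin28aIR libraries lay above both U6-MosIR libraries. Over all 360 miRNAs after TMM scaling, both U6-Lin28aIR libraries lay above both U6-MosIR libraries in 34 (9.44%) and below both in 36 (10%). These 36 include miR-466a-3p, miR-466b-3p, miR-466c-3p, miR-466e-3p and miR-466p-3p, which had the same counts under each name.

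Among the 194 miRNAs of at least 10 RPM, the highest fitted value belonged to miR-532-3p, with 12.9 and 13.1 RPM in U6-Lin28aIR libraries and 8.32 and 11.6 RPM in U6-MosIR libraries. Its log2 fold change was 0.28 ± 0.22 (SE). miR-25-5p, the passenger of a hairpin in an exon of Mcm7, followed with 15.3 and 10.5 RPM in U6-Lin28aIR libraries and 8.81 and 11.4 RPM in U6-MosIR libraries. The U6-MosIR values of miR-25-5p reached above the lower U6-Lin28aIR value. miR-16-2-3p was at 18.37 and 26.09 RPM with U6-Lin28aIR, and at 15.96 and 18.38 RPM with U6-MosIR. miR-27a-5p was at 106.3 and 120.7 RPM with U6-Lin28aIR, and at 90.0 and 92.8 RPM with U6-MosIR. miR-362-5p, which like miR-532-3p lies in an intron of Clcn5, was at 137.2 and 185.8 RPM with U6-Lin28aIR, and at 129.0 and 130.7 RPM with U6-MosIR. In miR-27a-5p and miR-362-5p the groups did not overlap on either scale, and the log2 fold changes were 0.20 and 0.19. miR-339-3p was at 11.1 and 15.8 RPM with U6-Lin28aIR, and at 10.7 and 10.9 RPM with U6-MosIR. miR-193a-5p was at 47.4 and 41.3 RPM with U6-Lin28aIR, and at 36.5 and 36.3 RPM with U6-MosIR. miR-30c-2-3p was at 14.6 and 13.9 RPM with U6-Lin28aIR, and at 11.95 and 11.35 RPM with U6-MosIR. These last 3 did not overlap in RPM and overlapped after TMM scaling, with log2 fold changes between 0.18 and 0.20.

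The lowest fitted value belonged to miR-3068-5p, with 9.69 and 12.3 RPM in U6-Lin28aIR libraries and 14.7 and 11.1 RPM in U6-MosIR libraries (-0.35 ± 0.22 on the log2 scale, SE). miR-5121 was at 883.4 and 753.1 RPM with U6-Lin28aIR, and at 803.9 and 1117 RPM with U6-MosIR (-0.32 ± 0.25, SE). miR-3535 was at 934.8 and 1759 RPM with U6-Lin28aIR, and at 1492 and 1290 RPM with U6-MosIR (-0.19 ± 0.24, SE). All 3 overlapped between the groups. miR-5121 lies on Snord33 in Rpl13a, miR-3535 on a snoRNA gene within Ncl, and the GENCODE entry of Mir3068 is also typed as a snoRNA, so the counts cannot separate reads of the snoRNA from those of the miRNA there. The same holds for miR-677-5p, with a fitted value below 0, and for miR-3084-3p, with a fitted value above 0. miR-140-5p was at 274.8 and 387.8 RPM with U6-Lin28aIR, and at 350.6 and 367.0 RPM with U6-MosIR (-0.24 ± 0.20, SE). miR-7a-1-3p was at 9.23 and 13.6 RPM with U6-Lin28aIR, and at 11.9 and 12.8 RPM with U6-MosIR. let-7e-3p was at 9.54 and 12.9 RPM with U6-Lin28aIR, and at 11.6 and 12.4 RPM with U6-MosIR. These 3 overlapped in RPM and did not overlap after TMM scaling. miR-21a-3p was at 30.5 and 21.7 RPM with U6-Lin28aIR, and at 29.3 and 26.5 RPM with U6-MosIR. miR-214-5p was at 12.2 and 17.1 RPM with U6-Lin28aIR, and at 11.1 and 19.9 RPM with U6-MosIR. Both overlapped on either scale.

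The most abundant miRNAs differed little in their fitted values. miR-21a-5p, a miRNA of fibroblasts and growing cells, was at 57180 and 68690 RPM with U6-Lin28aIR, and at 62570 and 54080 RPM with U6-MosIR. It took 30.5% and 31.0% of the miRNA counts with U6-Lin28aIR, and 33.5% and 28.9% with U6-MosIR, so the U6-MosIR duplicates enclosed both U6-Lin28aIR values (difference -0.463 percentage points, exact permutation p = 1). miR-31-5p was at 9271 and 10710 RPM with U6-Lin28aIR, and at 7795 and 11380 RPM with U6-MosIR. miR-125b-5p was at 6631 and 6729 RPM with U6-Lin28aIR, and at 4742 and 6847 RPM with U6-MosIR. For both the U6-MosIR duplicates also enclosed the U6-Lin28aIR values. miR-26a-5p was at 6538 and 7590 RPM with U6-Lin28aIR, and at 6530 and 6302 RPM with U6-MosIR. miR-29a-3p was at 3825 and 4856 RPM with U6-Lin28aIR, and at 3545 and 4517 RPM with U6-MosIR. miR-30e-5p was at 3048 and 4823 RPM with U6-Lin28aIR, and at 3889 and 3522 RPM with U6-MosIR. With let-7a-5p, let-7f-5p, let-7g-5p and let-7i-5p these made up the 10 most abundant, whose log2 fold changes lay between -0.05 and 0.11 and whose 95% intervals lay between 0.682-fold and 1.53-fold.

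Lists of miRNAs with known roles gave 0 miRNAs past the test in either direction. The miR-30 guides, which share the seed GUAAACA and include miR-30c-5p, whose binding site the study used in a reporter of RNA cleavage, had 5 of 5 tested and a median log2 fold change of 0.02. Their sum was 9387 and 13020 RPM with U6-Lin28aIR, and 10580 and 9812 RPM with U6-MosIR, so the U6-MosIR sums lay between the U6-Lin28aIR ones. miR-30a-5p was at 2691 and 3647 RPM with U6-Lin28aIR and at 3186 and 2502 RPM with U6-MosIR, miR-30d-5p was at 2340 and 2670 RPM with U6-Lin28aIR and at 2273 and 2150 RPM with U6-MosIR, and miR-30c-5p was at 1077 and 1482 RPM with U6-Lin28aIR and at 990.4 and 1308 RPM with U6-MosIR. In RPM both U6-Lin28aIR libraries were above both U6-MosIR libraries in 1 of the 5, miR-30d-5p, against 26.4% of all tested miRNAs.

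The innate immune list, read because double-stranded RNA can set off an interferon response, had 7 of 10 tested and a median of 0.05. Its members are not all specific to that response, and miR-9-5p is also on the muscle and neuron list. miR-155-5p was at 147.7 and 138.4 RPM with U6-Lin28aIR, and at 129.8 and 136.1 RPM with U6-MosIR. miR-146b-5p was at 364.2 and 394.9 RPM with U6-Lin28aIR, and at 333.5 and 293.5 RPM with U6-MosIR. In RPM both U6-Lin28aIR libraries were above both U6-MosIR libraries in 4 of the 7 (miR-155-5p, miR-146b-5p, miR-9-5p and miR-146a-5p), against 26.4% of all tested miRNAs, and after TMM scaling in 0 of the 7. miR-125a-5p was at 1477 and 1287 RPM with U6-Lin28aIR and at 1037 and 1393 RPM with U6-MosIR, and miR-9-5p was at 198.9 and 217.5 RPM with U6-Lin28aIR and at 183.5 and 192.5 RPM with U6-MosIR. miR-146a-5p, a classic NF-kB target, was rare at 1.01 and 0.861 RPM with U6-Lin28aIR, and at 0.801 and 0.852 RPM with U6-MosIR.

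The p53 and stress list had 7 of 9 tested and a median of 0.02. miR-34c-5p, a direct p53 target, was at 972.6 and 1281 RPM with U6-Lin28aIR, and at 943.1 and 1214 RPM with U6-MosIR. miR-34a-5p was at 194.5 and 265.3 RPM with U6-Lin28aIR, and at 191.9 and 226.5 RPM with U6-MosIR. In both the second library of each plasmid was the higher one. miR-34b-3p was at 170.3 and 217.8 RPM with U6-Lin28aIR and at 146.3 and 190.1 RPM with U6-MosIR, and miR-34c-3p was at 69.3 and 75.1 RPM with U6-Lin28aIR and at 59.1 and 64.9 RPM with U6-MosIR. In RPM both U6-Lin28aIR libraries were above both U6-MosIR libraries in 1 of the 7, miR-34c-3p, against 26.4% of all tested miRNAs. They were below both in 1, miR-34b-5p (9.46 and 9.34 against 10.5 and 9.79 RPM), against 4.72%. After TMM scaling 1 was above and 2 were below, against 9.44% and 10%.

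The miR-17-92 cluster and its paralogues, which follow proliferation, had 9 of 12 tested and a median of -0.03. miR-92a-3p was at 2904 and 3061 RPM with U6-Lin28aIR, and at 2414 and 2627 RPM with U6-MosIR, and did not overlap on either scale. miR-25-3p was at 1507 and 1439 RPM with U6-Lin28aIR, and at 1365 and 1179 RPM with U6-MosIR. Both U6-Lin28aIR libraries were above both U6-MosIR libraries in RPM in 2 of the 9, and below both in 0. Over all tested miRNAs these shares were 26.4% and 4.72%. With TMM scaling 1 of the 9 was above and 1 below, against 9.44% and 10%. Of 10 seeds with at least 3 tested miRNAs, the 2 from these clusters are given, chosen after their values were seen. The seed AUUGCAC, which miR-25-3p, miR-92a-3p, miR-92b-3p and miR-32-5p share, had 4 of 4 fitted values above 0, with a median of 0.12. The seed AAAGUGC of the same clusters (miR-17-5p, miR-20a-5p, miR-93-5p and miR-106b-5p) had 1 of 4 above 0, with a median of -0.05, beside 214 of all 360 tested miRNAs above 0. miR-93-5p was at 1213 and 1322 RPM with U6-Lin28aIR and at 1237 and 1143 RPM with U6-MosIR, and miR-20a-5p was at 701.7 and 866.7 RPM with U6-Lin28aIR and at 707.0 and 729.8 RPM with U6-MosIR. The cell cycle arrest list, with the miR-15/16 family and miRNAs of the miR-322 cluster, had 8 of 8 tested and a median of -0.01. Its members do not share 1 seed, with AGCAGCA in miR-16-5p, CCCUGAG in miR-351-5p and AACAUGA in miR-322-3p. miR-16-5p was at 2464 and 3699 RPM with U6-Lin28aIR and at 2441 and 3250 RPM with U6-MosIR, and miR-15b-5p was at 1071 and 1130 RPM with U6-Lin28aIR and at 836.5 and 1239 RPM with U6-MosIR. miR-351-5p was at 178.5 and 181.3 RPM with U6-Lin28aIR and at 158.1 and 169.1 RPM with U6-MosIR, and miR-322-3p was at 147.1 and 200.1 RPM with U6-Lin28aIR and at 146.2 and 163.1 RPM with U6-MosIR. In RPM both U6-Lin28aIR libraries were above both U6-MosIR libraries in 1 of the 8, miR-351-5p, and below both in 0. The shares over all tested miRNAs were 26.4% and 4.72%. After TMM scaling 0 were above and 1 was below, against 9.44% and 10%.

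The miRNAs that skip Drosha and go to Dicer directly had 7 of 10 tested and a median of 0.04. miR-320-3p was at 153.3 and 114.7 RPM with U6-Lin28aIR, and at 116.0 and 119.9 RPM with U6-MosIR. miR-484 was at 126.4 and 133.8 RPM with U6-Lin28aIR, and at 112.3 and 137.9 RPM with U6-MosIR. Both overlapped, as did miR-877-3p, a mirtron strand at 4.03 and 2.58 RPM with U6-Lin28aIR and at 3.02 and 3.27 RPM with U6-MosIR. miR-1839-5p was at 66.1 and 77.5 RPM with U6-Lin28aIR and at 65.6 and 63.5 RPM with U6-MosIR. There the groups came close without overlapping in RPM. The GENCODE entry of Mir1839 is also typed as a scaRNA, so its counts cannot separate reads of that RNA from those of the miRNA. On both scales U6-Lin28aIR was above in miR-877-5p (2.33 and 2.72 against 1.66 and 1.63 RPM) and below in miR-1981-5p (1.78 and 1.79 against 2.53 and 2.06 RPM). In RPM 2 of the 7 were above and 1 was below, against 26.4% and 4.72% of all tested miRNAs. After TMM scaling 1 was above and 1 below, against 9.44% and 10%. The fibroblast list had 13 of 13 tested, with a median of -0.02 and 4 values above 0. Its member miR-27a-3p was at 2271 and 2876 RPM with U6-Lin28aIR, and at 2348 and 2650 RPM with U6-MosIR.

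Markers of other cell types were few. Of 7 blood and serum miRNAs 1 was tested, miR-486a-5p, at 3.02 and 1.39 RPM with U6-Lin28aIR and at 1.48 and 1.70 RPM with U6-MosIR. The list summed to 3.26 and 1.72 RPM with U6-Lin28aIR, and to 1.73 and 2.06 RPM with U6-MosIR. Of 10 muscle and neuron miRNAs 4 were tested, led by miR-9-5p and by miR-128-3p at 53.4 and 63.7 RPM with U6-Lin28aIR and at 54.5 and 57.1 RPM with U6-MosIR. The neuronal miR-124-3p was at 0.310 and 0.861 RPM with U6-Lin28aIR and at 0.431 and 0.994 RPM with U6-MosIR, and the muscle miRNA miR-206-3p was at 1.01 and 0.331 RPM with U6-Lin28aIR and at 0.247 and 1.28 RPM with U6-MosIR. The epithelial and liver list had 7 of 12 tested and summed to 4518 and 4466 RPM with U6-Lin28aIR, and to 4302 and 3364 RPM with U6-MosIR. Nearly all of that sum came from the miR-183 cluster, which is not confined to epithelia: miR-182-5p was at 3263 and 3032 RPM with U6-Lin28aIR and at 3069 and 2261 RPM with U6-MosIR, miR-183-5p at 1023 and 1056 RPM with U6-Lin28aIR and at 985.7 and 800.5 RPM with U6-MosIR, and miR-96-5p at 164.0 and 284.2 RPM with U6-Lin28aIR and at 172.2 and 235.0 RPM with U6-MosIR. miR-203-3p, of squamous epithelium, was at 43.3 and 61.2 RPM with U6-Lin28aIR, and at 52.3 and 42.4 RPM with U6-MosIR. The 5 miRNAs of the list from the miR-200 family (miR-200a-3p, miR-200b-3p, miR-200c-3p, miR-141-3p and miR-429-3p) reached 0.930 RPM at most. The liver miRNA miR-122-5p had 2 and 3 counts with U6-Lin28aIR, and 8 and 6 counts with U6-MosIR.

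These medians were not stable. With 1 of the 8 libraries left out, the median turned in sign in 8 of the 11 lists with at least 4 tested members. It ran between -0.19 and 0.16 for the epithelial and liver list and between -0.48 and 0.12 for the muscle and neuron list. For the innate immune list it ran between -0.15 and 0.16. It stayed above 0 for the let-7 guides on the list, between 0.01 and 0.16. For the miR-17-92 cluster and its paralogues it stayed below 0, between -0.11 and -0.01. The fibroblast median also did not turn in sign, between -0.12 and 0.00.

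**Figure D4:**
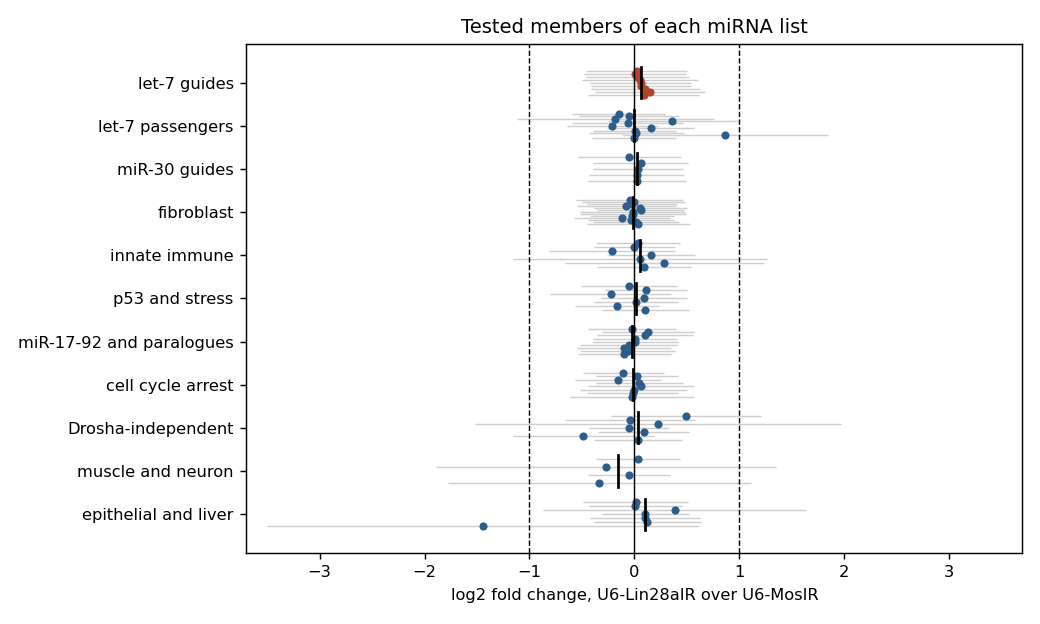
Log2 fold change of U6-Lin28aIR over U6-MosIR for the tested members of each miRNA list with at least 4 tested members, one point per miRNA with its 95% interval as a grey line, the list's median as a black bar and dashed lines at 2-fold. Medians lie between -0.16 (muscle and neuron, 4 members) and 0.10 (epithelial and liver, 7 members), and the wide intervals belong to rare miRNAs.

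The scale decided how many miRNAs seemed higher with the Lin28a hairpin. In RPM, which carries the larger miRNA share of the second U6-Lin28aIR library, both U6-Lin28aIR libraries lay above both U6-MosIR libraries in 95 miRNAs (26.4%) and below both in 17 (4.72%). Those 17 also include the miR-466 names with the same counts. For miRNAs of at least 10 RPM the counts above and below were 56 and 0, against 11 and 9 after TMM scaling. Over the 360 miRNAs, the fitted log2 fold change had a median of 0.02 with TMM, 0.14 with the perfectly mapped reads as library sizes and 0.00 with the 18–30-nt reads as library sizes. The median of the 9 let-7 guides moved with it, at 0.06, 0.17 and 0.04 on the same scales.

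Among miRNAs of at least 10 RPM, wells with the same plasmid differed more than wells with different hairpins. Over the 194 miRNAs of at least 10 RPM and after TMM scaling, the median size of the log2 ratio was 0.194 between the U6-Lin28aIR duplicates and 0.167 between the U6-MosIR duplicates. Between a U6-Lin28aIR and a U6-MosIR library it was 0.124 to 0.148 in the 4 possible pairs. A difference of over 1.5-fold was found for 10 miRNAs between the U6-Lin28aIR duplicates and 6 between the U6-MosIR duplicates, and for 2 or 3 in the pairs across hairpins. Over all 360 tested miRNAs the median sizes were 0.235 and 0.212 within a plasmid. Across hairpins they were 0.177 to 0.216, so the ranges overlapped there. In 186 of the 194 miRNAs, at least 1 pair of duplicates differed by as much as the plasmid means did. Means of 2 libraries vary less than single libraries, so a high count is built into that comparison. Duplicates were counted as separate libraries, as their labels give them, and in neither pair were the counts identical.

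**Figure D5:**
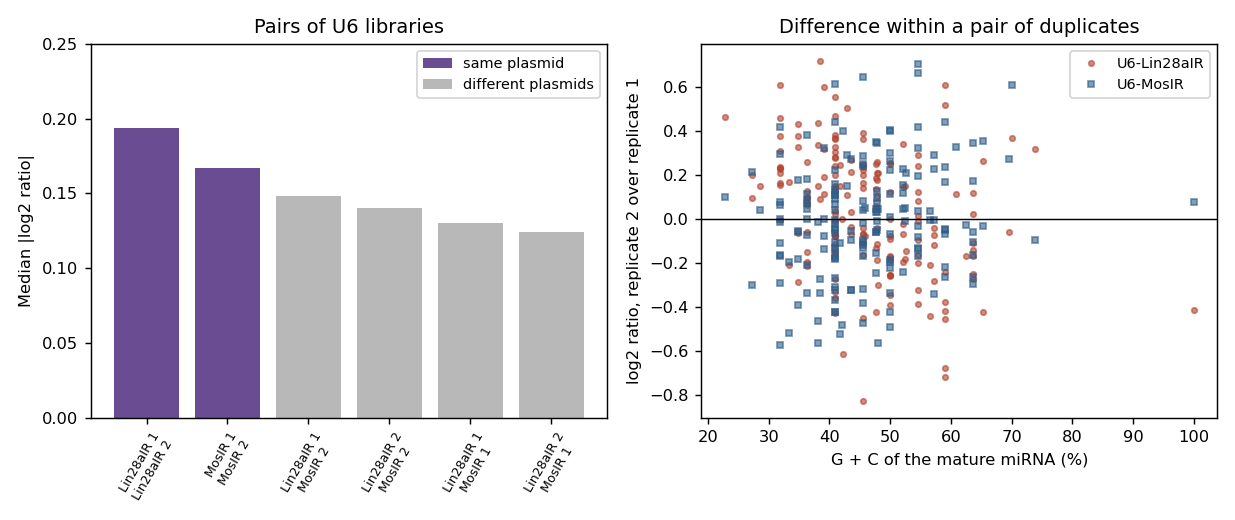
Left, median size of the log2 ratio over 194 miRNAs of at least 10 RPM for each pair of U6 libraries (numbers are replicates), 0.194 and 0.167 within a plasmid and 0.124 to 0.148 across plasmids. Right, log2 ratio of replicate 2 over replicate 1 against the G + C content (%) of 174 mature miRNAs, with circles for U6-Lin28aIR, which slope downwards, and squares for U6-MosIR.

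The differences within a plasmid followed base composition in part. RefSeq sequences were matched to 313 of the 360 miRNAs, all at identical coordinates, and to 174 of the 194 with at least 10 RPM. Across these 174 miRNAs, the log2 ratio of the second over the first U6-Lin28aIR library had r = -0.35 with the G + C content, and that of the U6-MosIR pair had r = 0.19. The points of each correlation come from the same pair of libraries, so miRNAs are not independent replicates and no p is given. In the U6-Lin28aIR pair the median log2 ratio was 0.17 for 41 miRNAs under 40% G + C, 0.11 for 71 miRNAs of 40% to under 50%, and -0.13 for 62 miRNAs of 50% and over. In the U6-MosIR pair the same medians were -0.06, -0.04 and 0.02. The fold change between the hairpins had r = 0.12 with G + C, and its medians in the 3 classes were 0.01, 0.02 and 0.05. The let-7 guides followed G + C in part in the U6-Lin28aIR pair. The log2 ratios were 0.16 and 0.46 for let-7f-5p and miR-98-5p (both 31.82%), and -0.83 for let-7b-5p (45.45%). At 40.91% they were -0.33, -0.36 and -0.43 for let-7c-5p, let-7d-5p and let-7e-5p, but 0.32 for let-7i-5p. let-7a-5p and let-7g-5p (both 36.36%) had -0.15 and 0.26. The sign of a duplicate tilt depends on which well was numbered first, so the signs cannot be compared between plasmids. The difference between the hairpins averages 2 libraries per plasmid, so its r cannot be set directly against those of single libraries. The part of library preparation in this was not tested. The 2 strands of a hairpin moved together only weakly, with r = 0.17 for the log2 fold changes of both strands over 49 hairpins with both at 10 RPM or more, and the same sign in 30 of them. Strands of the 5p arm (86 miRNAs) and of the 3p arm (81 miRNAs) had medians of 0.03 and 0.02.

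The hairpin difference was last set beside that of the CAG-EGFP plasmids, which share no library with it. In a test of the difference between the 2 hairpin effects, 0 of 360 miRNAs passed an adjusted p of 0.05 (0%, lowest adjusted p = 0.994, edgeR) and 13 had an unadjusted p under 0.05 (3.61%), where DESeq2 gave 8. Of these 13, 5 had at least 10 RPM. miR-3535 stood at -0.19 on the log2 scale between the U6 hairpins against 0.77 between the CAG-EGFP hairpins, a difference of -0.96 ± 0.34 (SE). miR-7a-5p had -0.07 against 0.67, miR-374b-5p 0.07 against 0.85, miR-542-3p -0.14 against 0.50 and miR-5121 -0.32 against 0.45. In all 5 the value between the U6 hairpins was the lower one. Without the first CAG-EGFP-MosIR library, 3 miRNAs passed, miR-32-5p (-1.25, adjusted p = 0.00498, edgeR), miR-5121 (-1.24, adjusted p = 0.00498) and miR-374b-5p (-1.09, adjusted p = 0.0229). That library stood apart in its let-7 share, which was 13.5% of the miRNA counts, against 18.7% to 20.5% in the other 3 CAG-EGFP libraries. For the 9 let-7 guides the log2 fold change lay between 0.01 and 0.15 with the U6 plasmids and between 0.13 and 0.41 with the CAG-EGFP plasmids. The difference was below 0 for all 9, between -0.36 and -0.06, with unadjusted p between 0.292 and 0.849 and an adjusted p of 0.994 for each. Over the 194 miRNAs of at least 10 RPM, the 2 hairpin effects had r = 0.10 and the same sign in 111. The miRNA share of the reads was higher with the Lin28a hairpin in the U6 pair, by 1.76 percentage points, and lower in the CAG-EGFP pair, with means of 12.2% in CAG-EGFP-Lin28IR and 14.8% in CAG-EGFP-MosIR libraries that overlapped.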

How the data were processed

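The members and lists were chosen with earlier results of these data known. The authors trimmed adapters and the random bases beside them, mapped reads with STAR 2.5.3a to mm10 with the plasmid sequences added and multimapping reads kept (tool and build are also named in the submitters' processing notes), and deposited raw counts for each locus of a mature miRNA (sheets for 0, 1 and 2 mismatches) together with library totals by read length. The rule that assigned reads to miRNAs is not stated in these sources. A read that maps to several loci can count under near-identical names, and counts are of reads, not of molecules. Of the 313 tested names with a matched sequence, 2 pairs share 1 sequence, let-7a-1-3p with let-7c-2-3p and miR-199a-3p with miR-199b-3p. miR-466a-3p, miR-466b-3p, miR-466c-3p, miR-466e-3p and miR-466p-3p were tested as separate names with the same counts, 9 and 5 with U6-Lin28aIR and 13 and 14 with U6-MosIR. Columns of all 8 libraries were used. The labels give 250 ng of plasmid per well, and the methods state a larger dose in a larger well. Dose was not used in any test.

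Of several loci of 1 mature name, the one with the most counts over the 8 libraries stood for it. RPM used the perfectly mapped reads. Tests used edgeR 4.0.16 in R 4.3.3 (filterByExpr, TMM, robust quasi-likelihood F test) in 1 fit of 4 plasmids over 8 libraries, Benjamini-Hochberg adjusted over 360 miRNAs at a threshold of 0.05. Intervals (95%) came from the fold change, its F and the t quantile, and are approximate. For shares the test was an exact permutation over libraries, two-sided. Log2 ratios between libraries used a pseudocount of 1 CPM. The test was also run on simulated data with known changes, made with the levels and the spread of these same libraries. The miRNAs named were the 8 highest and 8 lowest fold changes at 10 RPM or more, the 8 lowest p-values and the 10 most abundant. All let-7 guides on the list, up to 4 members of each list and any past the threshold were also named. Others (let-7j, miR-295-3p, the miR-200 miRNAs, the miR-466 names, miR-122-5p, miR-146a-5p, miR-32-5p, miR-374b-5p, miR-7a-5p, miR-542-3p, miR-107-3p, miR-30e-3p, miR-34b-5p, miR-877-5p and miR-1981-5p) were named after their values were seen. Sequences came from RefSeq (GRCm38.p6) and genes from GENCODE M21. Alternatives were DESeq2 1.42.0, other library sizes, filters, mismatches, loci summed, the 4 U6 libraries alone, a replicate block, no robust estimation and leaving out each library. Small RNAs of the hairpins were not analysed here.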

Additional observations from a re-analysis of the deposited data

How the results depend on the processing

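The count of 0 miRNAs past the threshold between U6-Lin28aIR and U6-MosIR was kept under all 11 other settings and with each of the 8 libraries left out, with 0 to 6 miRNAs at an unadjusted p under 0.05. For the difference between the U6 and CAG-EGFP hairpin effects the count was 0 to 3 when 1 library was left out (3 without CAG-EGFP-MosIR replicate 1) and 0 elsewhere. With the replicate number as a block the counts were 0 and 0; same-numbered libraries deviated together with r = 0.05 (U6), 0.32 (CAG-EGFP), -0.22 (Lin28 hairpins) and -0.43 (Mos hairpins), so the numbers were not taken as pairs. Leaving out 1 library gave between -1.28 and 0.451 percentage points for the 21–23-nt share of 18–30-nt reads and between -2.78 and 1.85 for the miR-21a-5p share.

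Small fold changes turned in sign. With DESeq2 the log2 fold change was -0.02 for let-7g-5p, -0.03 for let-7i-5p, -0.02 for miR-98-5p and -0.02 for miR-26a-5p. With only miRNAs of at least 10 RPM it was 0 for let-7g-5p, -0.02 for let-7i-5p, -0.01 for miR-98-5p and -0.01 for miR-26a-5p. For let-7i-5p it was -0.01 with the 18–30-nt reads as library sizes and 0 with loci summed (values printed as 0 were below 0 before rounding). With the perfectly mapped reads as library sizes it was 0.11 for miR-21a-5p, 0.11 for miR-29a-3p, 0.09 for miR-30e-5p and 0.06 for miR-31-5p. The cause was not tested.

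Leaving out 1 library in turn gave these ranges where the sign turned. For let-7 strands they were -0.02 to 0.12 (let-7a-5p), -0.36 to 0.47 (let-7b-5p), -0.11 to 0.22 (let-7c-5p), -0.16 to 0.19 (let-7d-5p), -0.2 to 0.22 (let-7e-5p), -0.07 to 0.1 (let-7f-5p), -0.15 to 0.12 (let-7g-5p), -0.2 to 0.13 (let-7i-5p), -0.26 to 0.2 (miR-98-5p) and -0.1 to 1.32 (let-7a-2-3p). For abundant miRNAs they were -0.19 to 0.09 (miR-21a-5p), -0.32 to 0.17 (miR-31-5p), -0.08 to 0.03 (miR-26a-5p), -0.16 to 0.31 (miR-125b-5p), -0.19 to 0.1 (miR-29a-3p) and -0.34 to 0.13 (miR-30e-5p). For the others they were -0.17 to 0.55 (miR-25-5p), -0.01 to 0.31 (miR-339-3p), -0.06 to 0.32 (miR-193a-5p), -0.61 to 0.07 (miR-21a-3p), -0.63 to 0.09 (miR-3535) and -0.58 to 0.2 (miR-214-5p). Of the fold changes of the 38 miRNAs named for their level, fold change or p or as let-7 guides, 259 values kept their sign with a library left out and 45 did not, and 397 kept it under the other settings and 14 did not. A library left alone in its group was assumed to vary like the other groups. The median SE was 0.21 at 10 RPM or more and 0.36 below it, and 2 libraries per plasmid and the depth limit what can be seen there.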
